A study of Mus musculus with 4 samples.

Results

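General capillary endothelial cells, the cells that line most of the capillary bed around the alveoli, were taken from a single-cell RNA sequencing (scRNA-Seq) study of mouse lung. A cell was a member when it held 200 to 7500 genes and at most 10% mitochondrial UMIs, at least 1 UMI of Cdh5, and UMIs of at least 3 of 5 marker genes (Gpihbp1, Plvap, Aplnr, Kit and Sema3c). It also had no UMI of Ednrb, Prox1, Ptprc or Col1a2, fewer than 2 detected of the arterial genes Gja5, Sema3g, Bmx and Dkk2, and fewer than 2 detected of the venous genes Slc6a2, Bst1, Vegfc and Nr2f2. In all, 1615 of 15428 barcodes were members. Members were thus chosen by the measured counts of these genes, and the levels of the 5 marker genes are given below as a description. A UMI (unique molecular identifier) marks 1 captured transcript, so that amplified copies are not counted again.

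The lungs came from wild-type male C57BL/6 mice. Food was reduced to 70% of free intake, which the labels state for the mice without naming an age and the study's methods state for those aged to 22 months, so diet may differ with age. Young mice were 2 to 3 months old and aged mice 22 months old. At each age, 1 library came from naive, nonventilated mice and 1 from mice ventilated for 3 hours with large breaths (20 mL/kg, 150 per minute) and an end-expiratory pressure of 0. The study's methods capped the volume of a breath for heavier mice, and aged mice were in general heavier than young ones. Breath volume per body weight may thus differ with age, and its part in the values was not tested. Ventilated mice also had ketamine and medetomidine anesthesia, buprenorphine, pure oxygen and vascular lines, so ventilation and these procedures cannot be told apart. Each library pooled the digested and cryopreserved left lobes of 3 mice, and a pool counts as 1 sample, so no test was run. Intervals are exact 95% intervals for counting error only, and differences between mice or pools are not covered by them. Libraries held 41222284, 44404172, 45218176 and 40655452 UMIs over 3630, 4497, 3901 and 3400 barcodes, with the young libraries before the aged ones and, at each age, the nonventilated before the ventilated one, an order kept wherever 4 values follow each other. The libraries shared 23 barcode sequences summed over all pairs, none of them among members.

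Lung capillaries hold 2 kinds of endothelial cell. General capillary cells regulate vasomotor tone, bind lipoprotein lipase through Gpihbp1 and can divide to repair the capillary bed, while aerocytes, marked by Ednrb and Car4, are large thin cells that lie at the gas exchange surface. Steady laminar flow maintains the transcription factors Klf2 and Klf4, which keep endothelium antithrombotic and quiescent. Interferons act through STAT factors to switch on antiviral genes, and metallothioneins, induced by zinc, glucocorticoids and oxidative stress, bind metal ions.

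There were 452, 445, 413 and 305 general capillary cells, with 3794251, 4486421, 3992922 and 3269566 UMIs in sum. They made up 15.4% (14.1 to 16.7), 13.4% (12.2 to 14.6), 13.7% (12.4 to 14.9) and 12.0% (10.7 to 13.3) of the cells within the limits on genes and mitochondrial UMIs. Over cells with Cdh5 and without Ptprc and Col1a2, the shares were 46.5, 46.4, 51.0 and 47.8%. Shares of all cells in the 2 young libraries lay closer to each other than their intervals are wide. Median depth per member was 7291, 7975, 7902 and 9026 UMIs.

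The marker genes were themselves lower in ventilated libraries, and their part in the member counts was not tested. Gpihbp1, the lipoprotein lipase anchor, was at 861, 419, 687 and 671 CPM, Plvap, which forms the diaphragms of endothelial fenestrae and caveolae, at 643, 311, 487 and 414 CPM, and the apelin receptor gene Aplnr at 127, 31.9, 50.6 and 11.3 CPM. The receptor tyrosine kinase gene Kit was at 491, 362, 399.7 and 365 CPM and Sema3c, a secreted semaphorin, at 2544, 1471, 3062 and 1919 CPM. CPM here is the UMIs of a gene per 1000000 UMIs of the summed members of a library. Aplnr stood out, with the aged ventilated library lowest, and Gpihbp1 was nearly level between the aged libraries. All 5 markers were detected in 38.3, 13.0, 25.2 and 7.21% of members. Sema3g, which the rule counts as arterial, was found in 81.2, 37.1, 77.5 and 53.8% of members. Vegfc, which it counts as venous, was found in 22.3, 16.2, 17.7 and 15.1%. The part of these genes in the member counts was not tested either. Cells just inside the limit, with 3 markers, numbered 75, 147, 105 and 102 and held a median of 5043, 5818, 5723 and 6615 UMIs, while cells just outside it, with 2 markers and all other criteria met, numbered 44, 104, 39 and 53 and held 2595, 4359, 3047 and 4093 UMIs. With every cell thinned to 2000 UMIs before the rule was applied, members were 13.7, 7.22, 10.9 and 8.44% of cells, lower than without thinning in every library and most of all in the young ventilated one. Over thinned cells with Cdh5 and without Ptprc and Col1a2, the shares were 43.9, 24.7, 41.6 and 34.2%, lowest in the young ventilated library.

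The name was checked with genes that the rule did not use. Of 15 other general capillary genes, 6 were at least 2-fold higher in members than in aerocytes of the same library in all 4 libraries, and their median log2 ratio over aerocytes was 0.93, 1.02, 1.09 and 0.94. Of 9 aerocyte genes that neither class was chosen by, 6 were at least 2-fold lower in all 4. Over all genes compared with aerocytes, 1.13% were at least 2-fold higher and 2.28% at least 2-fold lower in all 4. Arterial genes outside the rule had medians over aerocytes of 1.07, 0.87, 0.98 and 1.03, and venous ones 0.42, 1.00, 0.76 and 0.57. Ratios over aerocytes thus do not set members apart from other endothelium. Lymphoid genes summed to 2.11, 4.24, 6.76 and 10.7 CPM, with Ighm the most abundant (2, 9, 16 and 25 UMIs), and the T and NK cell genes Cd3e, Cd3d, Nkg7 and Klrb1c were at 0 in all 4 libraries. Summed levels of myeloid genes were 65.1, 88.3, 109.9 and 122 CPM, with Lyz2 the most abundant, and those of mesenchymal genes 87.0, 161, 87.9 and 97.9 CPM, with Inmt the most abundant. Epithelial genes summed to 349, 568, 879 and 460.0 CPM. Hopx was at 164, 141, 202 and 167 CPM and Sftpc at 35.3, 38.6, 212 and 41.6 CPM, above Hopx in the aged nonventilated library. For a few genes, single members held most UMIs in a library. Hbb-bs, a globin gene, had 617 of its 632 UMIs in the young ventilated library in 1 cell and 749 of its 751 UMIs in the aged ventilated library in 1 cell. In the aged nonventilated library, 1 cell held 440 of 465 UMIs of Sftpa1 and 662 of 846 UMIs of Sftpc, both surfactant protein genes. Sftpc was otherwise spread over cells, found in 20.8, 27.2, 32.7 and 30.8% of members and in 24.7, 26.1, 36.2 and 35.8% of cells with Col1a2. Hbb-bs, Sftpa1 and Sftpc ranked among the largest differences below for that reason and are not described further.

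In young mice, ventilated general capillary cells had higher metallothionein and interferon-stimulated gene levels. Coagulation and fibrinolysis genes went both ways, with 6 of 10 at least 2-fold higher and 2 at least 2-fold lower. Most genes that mark the cell type were lower, as were the vasoactive receptor genes Npr3, Glp1r and Calcrl, while the receptor gene Bdkrb2 was higher. Of 6195 genes whose mean reached 20 CPM, 465 (7.51%) were at least 2-fold higher and 748 (12.1%) at least 2-fold lower, with a median log2 ratio of -0.16 over all of them. In aged mice, the same comparison gave 265 (4.26%) higher and 446 (7.17%) lower of 6219 genes, with a median of -0.08. In either direction, whatever the size, 38.6% of genes were higher and 61.4% lower in young mice, and 42.8% higher and 57.2% lower in aged mice. Counts over a list include only members that passed this filter, and a member that passed only through the library where it was high had to differ, so such counts are descriptions. Log2 ratios carry 1 added UMI, and the intervals are those of the plain ratio. The 2 comparisons share no library. Of the genes compared at both ages, 177 were past 2-fold higher in both, which is 41.6% of the 426 in the young list and 75% of the 236 in the aged list, and 336 were past 2-fold lower in both, 47.6% of 706 and 82.0% of 410. Across 5979 genes, which are not independent of each other, Pearson's r of the log2 ratios was 0.82, Spearman's coefficient 0.755 and the slope of aged on young 0.62.

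**Figure D1:**
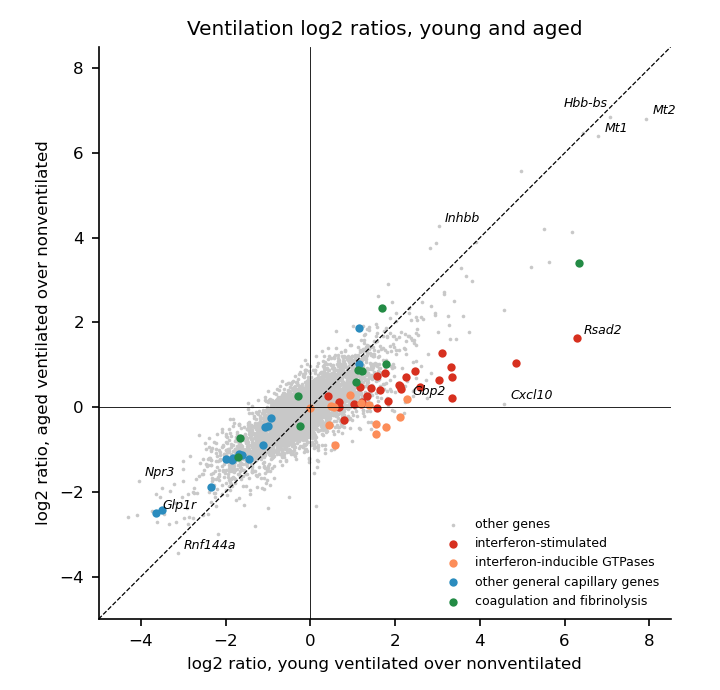
Log2 ratio of ventilated over nonventilated general capillary cells in aged mice (vertical) against young mice (horizontal), 1 point for each gene, with interferon, GTPase, general capillary and coagulation genes in color and a dashed line where both ratios are equal. Mt1 and Mt2 lie high at both ages, whereas Rsad2 and Cxcl10 lie at 6.29 and 4.58 in young and at 1.64 and 0.09 in aged mice.

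Apart from Hbb-bs, the metallothioneins had the highest ventilation ratios in young and aged mice among genes with a mean of 50 CPM or more. Mt2 was at 1.58, 447, 6.01 and 703 CPM and Mt1 at 9.49, 1076, 22.8 and 1932 CPM. Both genes were near absent in nonventilated cells and high in both ventilated libraries, with the aged one highest. The log2 ratio of Mt2 was 7.92 in young mice (interval of the ratio 129.7 to 771) and 6.81 in aged mice (78.4 to 183), and that of Mt1 was 6.79 (81.8 to 162) and 6.39 (68.9 to 105). After thinning each cell to 2000 UMIs, 2.27, 65.3, 4 and 65.9% of members held a UMI of either gene, with medians of 0, 1, 0 and 2 UMIs. How many of these cells held only RNA from outside the cell was not estimated. Mt1 was also high in cells with Col1a2, which hold fibroblasts, at 1570, 20373, 2449 and 21936 CPM, so its level in other cells moved the same way. RNA from outside the cell was estimated at 1.15, 2.07, 1.96 and 1.34% of member UMIs. The estimate is the median, over chosen marker genes, of their share in members divided by their share in all barcodes. No empty droplets were used, and doublets or low expression of those genes in members would also count toward it. No ratio with this estimate subtracted is given, since Mt1 had 36 and 91 UMIs in nonventilated members and few would remain. As a list, metal and glucocorticoid response genes had medians of 0.15 and 0.17, with 6 of 16 at least 2-fold higher in young and 4 of 17 in aged mice, Mt1 and Mt2 included, against 7.51 and 4.26% of all genes. Fkbp5, which encodes a glucocorticoid-induced chaperone of the glucocorticoid receptor, was at 75.1, 179, 62.4 and 234 CPM.

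The 250 bases before the start sites of both genes are shown because these genes moved together, with the core that metal-responsive transcription factor 1 binds (TGCNCNC, searched on both strands) in capitals. Sequences are from RefSeq for GRCm38.p6, written on the strand of the gene. The Mt1 window (chr8:94178839-94179088, plus strand) held 1 match, 23 bases before the start, and the Mt2 window (chr8:94172368-94172617, plus strand) held 5, from 223 to 50 bases before it. The last 7 bases of the Mt1 window lie in an annotated exon of Mt1, and the Mt2 window lies within an exon of Gm45774, an antisense gene. Start sites of Mt1 thus differ between annotations, and only 1 RefSeq start was used for each gene. Sequence outside the windows was not searched, so the match numbers of the genes are not compared.
Mt1: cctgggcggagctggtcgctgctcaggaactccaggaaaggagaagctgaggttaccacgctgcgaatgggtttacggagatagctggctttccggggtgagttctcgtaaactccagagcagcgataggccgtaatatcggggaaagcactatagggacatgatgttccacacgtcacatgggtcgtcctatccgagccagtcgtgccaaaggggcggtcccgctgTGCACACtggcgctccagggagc
Mt2: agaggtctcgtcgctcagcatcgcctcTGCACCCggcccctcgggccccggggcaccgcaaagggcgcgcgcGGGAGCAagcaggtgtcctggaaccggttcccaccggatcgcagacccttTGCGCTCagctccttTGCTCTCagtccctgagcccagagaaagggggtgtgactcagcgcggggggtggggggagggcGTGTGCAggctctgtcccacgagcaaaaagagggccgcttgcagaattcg
The core is short, and 44.4% of 32851 mouse promoters of this length hold it, so a match is no more than a description.

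Interferon-stimulated genes set the young ventilated library apart. Rsad2, which encodes the antiviral enzyme viperin, was at 11.1, 889, 16.3 and 51.1 CPM, Ifit3, which takes part in binding foreign RNA, at 21.1, 615, 44.1 and 91.8 CPM, and Cxcl10, a chemokine that draws activated T cells, at 19.0, 459, 20.8 and 22.0 CPM. The young ventilated library was high in all 3, and for Cxcl10 the aged ventilated library was level with both nonventilated ones. Log2 ratios in young mice were 6.29 (59.3 to 112), 4.85 (23.4 to 36.9) and 4.58 (19.1 to 31.0), against 1.64 (2.34 to 4.25), 1.05 (1.72 to 2.52) and 0.086 (0.762 to 1.47) in aged mice. All 32 genes of this list that passed the filter were higher in young ventilated cells, 28 of them at least 2-fold, with a median of 2.10. Of the 28, 7 were under 20 CPM in the nonventilated library and passed only through the ventilated one. In aged mice, 26 of 28 were higher, 3 at least 2-fold, with a median of 0.46, while the share of all genes past 2-fold higher was 7.51 and 4.26%. With no filter, 29 of 34 members were past 2-fold higher in young and 4 of 34 in aged mice, and 1 was past 2-fold lower in aged mice. Over all genes with no filter, 1914 of 18642 were past 2-fold higher in young and 2340 of 18606 in aged mice. The aged count of the list was near that share. Ifit3b is a paralog of Ifit3, and reads may be split between them; its levels were 3.43, 105, 12.3 and 19.6 CPM. The young ventilated library was also highest and the aged ventilated one next for the DNA sensor gene Ifi204 at 7.12, 211, 7.51 and 26.3 CPM, the ubiquitin-like modifier gene Isg15 at 90.9, 914, 119 and 229 CPM and Irf7, a transcription factor that amplifies interferon production, at 23.7, 244, 41.1 and 48.0 CPM. Ifitm3, which blocks virus entry, was at 1417, 4202, 1224 and 2033 CPM.

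The response was spread over the cells of the young ventilated library. At 2000 UMIs per cell, interferon-stimulated genes gave a median of 10, 33, 10 and 14 UMIs, and the 10th and 90th percentiles were 16 and 53 UMIs in young ventilated against 4 and 18 in young nonventilated cells. Rsad2 was detected in 2.05, 55.7, 2.50 and 6.08% of the thinned members, and in 0.324, 1.03, 0 and 0.269% of thinned cells with Col1a2, a class with medians of 13824, 14619, 16154 and 16278 UMIs before thinning. Shares in members before thinning can be read beside this for Cxcl10, which was found in 5.97, 53.3, 7.75 and 7.87% of members and in 7.09, 27.5, 16.9 and 7.77% of cells with Col1a2, a deeper class that also expresses the gene. After thinning, the shares were 2.95, 28.3, 2.25 and 2.70% of members and 3.08, 12.3, 9.23 and 1.61% of cells with Col1a2.

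**Figure D2:**
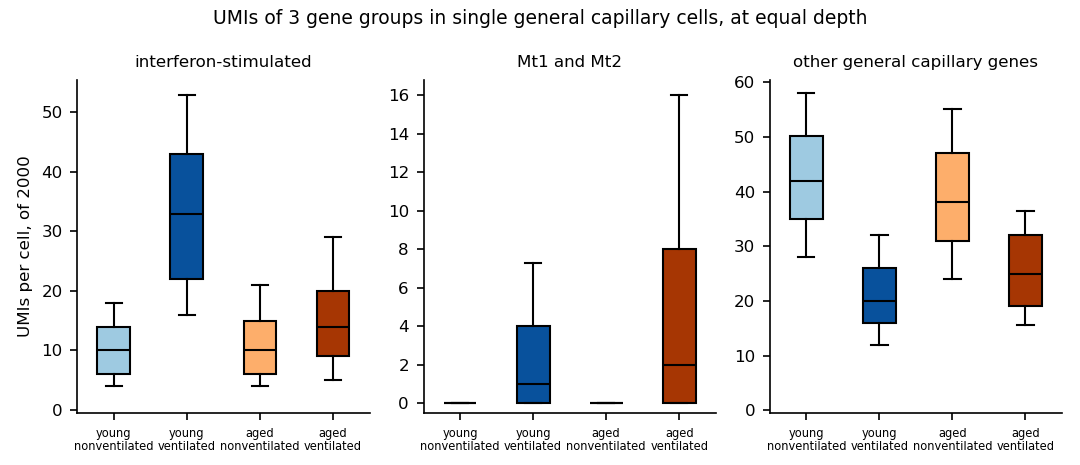
UMIs of interferon-stimulated genes, of Mt1 and Mt2 and of other general capillary genes in single general capillary cells, each thinned to 2000 UMIs, for the 4 libraries. Boxes span the quartiles with the median as a line and whiskers reach the 10th and 90th percentiles; the median of interferon-stimulated genes is 33 UMIs in the young ventilated library and 10 to 14 in the others.

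Promoters of interferon-stimulated genes were searched for the core of the interferon-stimulated response element (GAAANNGAA, both strands), and the 3 genes of highest young ventilation ratio among those with a match are described, the core in capitals, again for the 250 bases before the start in RefSeq GRCm38.p6. The Rsad2 window (chr12:26456453-26456702, minus strand) held 1 match and the Ifit3 window (chr19:34583279-34583528, plus strand) held 3. The Ifit3b window (chr19:34607707-34607956, plus strand) held 3 as well and shares a stretch of 169 bases with that of Ifit3, so only the latter is printed.
Rsad2: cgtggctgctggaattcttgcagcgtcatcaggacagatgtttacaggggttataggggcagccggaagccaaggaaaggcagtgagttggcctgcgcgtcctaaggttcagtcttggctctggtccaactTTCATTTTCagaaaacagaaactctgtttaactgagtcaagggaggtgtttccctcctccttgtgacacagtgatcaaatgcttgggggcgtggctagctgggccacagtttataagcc
Ifit3: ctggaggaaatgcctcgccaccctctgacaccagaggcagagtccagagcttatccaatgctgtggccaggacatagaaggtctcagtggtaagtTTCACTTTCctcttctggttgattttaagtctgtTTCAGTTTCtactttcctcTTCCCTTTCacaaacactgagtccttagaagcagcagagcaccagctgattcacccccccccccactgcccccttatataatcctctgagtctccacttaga
This core was in 7.13% of 32851 promoters and in 11 of 29 promoters (37.9%) of the list, which stand for 25 genes.

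Interferon-inducible GTPases, which attack pathogen vacuoles, had a median of 1.27 in young mice, with 8 of 14 at least 2-fold higher, and of -0.028 in aged mice, with none of 13 past 2-fold, against 7.51 and 4.26% of all genes past 2-fold higher. Gbp2 was at 173, 836, 133 and 152 CPM, Gbp5 at 81.7, 283, 108 and 78.3 CPM and Gbp6 at 105, 310.0, 94.2 and 60.9 CPM. For these the young ventilated library was alone at the top, and for Gbp5 and Gbp6 the aged ventilated library was the lowest of the 4. Iigp1, an immunity-related GTPase, was at 1206, 1799, 921 and 496 CPM. Genes of MHC class I presentation, which show peptides to CD8+ T cells, had medians of 0.45 in young and -0.062 in aged mice, and those of MHC class II presentation -0.83 and -0.34. Nlrc5, the transactivator of class I genes, was at 143, 342, 191 and 183 CPM, and Ciita, its class II counterpart, at 70.6, 17.8, 51.1 and 24.5 CPM. Of 7 class II genes, 6 were lower at both ages, where 61.4 and 57.2% of all genes were lower, and Cd74, the invariant chain gene, was the exception at 1320.4, 1565, 1224 and 1664 CPM. Cd274, which encodes the T-cell inhibitory ligand PD-L1, was at 55.3, 261, 51.6 and 56.3 CPM, high only in the young ventilated library.

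Several genes that control clotting and leukocyte capture were higher after ventilation. Plat, tissue plasminogen activator, was at 66.9, 216, 87.2 and 443 CPM and Thbd, which encodes the anticoagulant thrombomodulin, at 822, 259, 855 and 513 CPM. Plat was thus higher and Thbd lower at both ages. Of 10 coagulation and fibrinolysis genes, 6 were at least 2-fold higher and 2 lower in young mice (median 1.10), and 3 higher and 1 lower in aged mice (median 0.72), where 7.51 and 4.26% of all genes were higher and 12.1 and 7.17% lower by that much. In young mice, 2 of the higher and 1 of the lower ones passed the filter through 1 library only. P-selectin (Selp), which captures rolling leukocytes, was at 0.527, 56.8, 3.51 and 65.5 CPM, from 2, 255, 14 and 214 UMIs, with an interval of the ratio of 29.5 to 895 in young mice and 10.9 to 34.7 in aged mice. Few cells carried it, with 0, 5.02, 0.75 and 5.07% of thinned members holding a UMI, and 1 cell held 85 of the 255 UMIs in the young and 1 cell 61 of the 214 UMIs in the aged ventilated library. Venous endothelium expresses Selp as well. E-selectin (Sele) was at 1.05, 45.9, 3.26 and 21.1 CPM and Vcam1 at 4.22, 37.9, 11.02 and 20.2 CPM. These adhesion genes were low without ventilation, and 4 of 10 of the list that passed the filter were past 2-fold higher in young and 1 of 9 in aged mice, against 7.51 and 4.26% of all genes. Of these, 3 in young and 1 in aged mice passed only through the ventilated library. Sele did not pass in aged mice, and with no filter the counts were 5 of 11 and 2 of 12. Over all genes with no filter, 1914 of 18642 were past 2-fold higher in young and 2340 of 18606 in aged mice. The aged count of the list was near that share.

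Regulators of the cytoskeleton and secreted factors were also among the higher genes. Akap12, a scaffold for protein kinases A and C, was at 624, 5569, 836 and 5530.1 CPM, Rhoc, which encodes a small GTPase, at 161, 1162, 217 and 1135 CPM, and Timp3, a metalloproteinase inhibitor, at 767, 2646, 1404 and 5100.4 CPM. Both ventilated libraries were above both nonventilated ones in all 3. Noct, which encodes the clock-controlled phosphatase nocturnin, was at 15.8, 590.0, 38.3 and 384 CPM. Inhbb, which encodes an activin subunit, was at 11.9, 99.0, 13.3 and 260.0 CPM, with log2 ratios of 3.03 for young and 4.27 for aged mice. Ch25h, which makes 25-hydroxycholesterol, was at 1.05, 60.2, 5.01 and 97.0 CPM and the protease inhibitor gene Serpina3g at 15.8, 239, 21.3 and 319.6 CPM. For Inhbb, Ch25h and Serpina3g, the aged ventilated library was the highest. Serpina3f, a paralog with which Serpina3g may share reads, was at 17.7, 139.5, 12.8 and 191 CPM. Of 7 NRF2 antioxidant genes, 7 were higher in young and 6 in aged mice (medians 0.92 and 0.62), and 27 of 30 constitutive proteasome genes were higher at each age with medians of only 0.26 and 0.23, where 38.6 and 42.8% of all genes were higher.

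**Figure D3:**
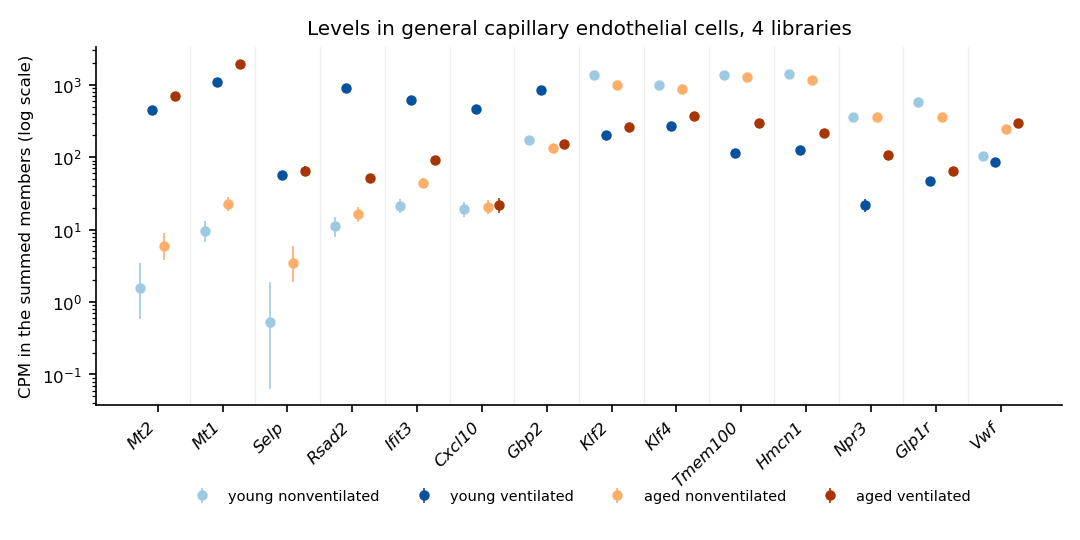
CPM of named genes in the summed general capillary cells of each library, on a log axis, with exact Poisson 95% intervals. Klf2, Klf4, Tmem100, Hmcn1, Npr3 and Glp1r are lower in both ventilated libraries, and Rsad2, Ifit3, Cxcl10 and Gbp2 are highest in the young ventilated one.

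Most genes that characterize general capillary cells were lower after ventilation at both ages, beyond the markers of the rule. Of 15 such genes, 11 were at least 2-fold lower in young mice and 9 in aged mice, and 2 were at least 2-fold higher at each age, with medians of -1.62 and -1.13, where 12.1 and 7.17% of all genes were lower by that much. The fall was not particular to these cells. In aerocytes, 10 of the 15 were at least 2-fold lower in young and 6 in aged mice, and 2 higher at each age. Their medians there were -1.30 and -0.98. Glp1r, the receptor for glucagon-like peptide 1, was at 580.4, 46.6, 364 and 64.2 CPM and Hmcn1, an extracellular matrix gene, at 1411, 125, 1178 and 217 CPM. Npr3, the clearance receptor for natriuretic peptides, was at 363, 21.6, 356 and 107 CPM, with a log2 ratio of -4.05 (0.0480 to 0.0733) in young mice and -1.73 (0.266 to 0.338) in aged mice. Each of the 3 was several-fold lower in both ventilated libraries, with the young ventilated library the lowest. Per cell at 2000 UMIs, the list gave a median of 42, 20, 38 and 25 UMIs. Calcrl, the receptor for adrenomedullin, was at 2734, 886, 2617 and 1192 CPM and its partner Ramp2 at 1178, 298, 1054 and 657 CPM. Vasoactive mediators as a list had 5 of 11 genes past 2-fold lower in young and 4 of 11 in aged mice, against 12.1 and 7.17% of all genes, and 1 past 2-fold higher at each age. With no filter, where genes of few UMIs enter, 6 of 20 were past 2-fold lower and 6 higher in young and 4 lower and 2 higher in aged mice. Over all genes with no filter, 5170 of 18642 were lower and 1914 higher in young mice. In aged mice, 2950 of 18606 were lower and 2340 higher. The lower counts of the list were near those shares. In the other direction, the stem cell factor gene Kitl was at 330.2, 1090.0, 444 and 1173 CPM and Lyve1, a hyaluronan receptor, at 518, 1507, 474 and 1842 CPM, both higher in the 2 ventilated libraries.

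Many flow-responsive and growth factor signaling genes were lower after ventilation in young mice, and fewer of them passed 2-fold in aged mice. Klf2 was at 1363, 201, 980.0 and 262 CPM and Klf4 at 1003, 266, 868 and 376 CPM, log2 ratios of -2.76 (0.138 to 0.159) and -1.91 (0.249 to 0.284) in young mice and -1.90 (0.248 to 0.288) and -1.21 (0.405 to 0.462) in aged mice. Klf2 was found in 86.6, 27.4, 73.3 and 32.8% of thinned members, and in 41.2, 39.4, 34.3 and 29.6% of thinned cells with Col1a2, a class that also expresses it, so fewer general capillary cells held a detected transcript after ventilation. Tmem100, a target of BMP9 and ALK1 signaling in endothelium, was at 1349.7, 115, 1265 and 292 CPM, and Acvrl1, the ALK1 gene, at 854, 326, 664 and 454 CPM. Ptprb, the phosphatase that restrains TIE2, was at 2964, 746, 2403 and 1029 CPM, and Angpt2, the TIE2 antagonist that endothelium releases when activated, at 18.7, 72.0, 13.8 and 20.8 CPM. Angpt2 was high in the young ventilated library alone. Jag1, a Notch ligand, was at 51.4, 8.92, 42.3 and 23.2 CPM and Hey1, a Notch target, at 77.2, 17.4, 70.9 and 30.0 CPM. In young mice, medians were -1.08 for the shear and KLF program (6 of 11 past 2-fold lower, 2 higher), -0.74 for VEGF and angiopoietin genes (4 of 10 lower, 2 higher), -0.60 for the TGF-beta and BMP pathway (4 of 15 lower, 0 higher) and -0.66 for the Notch pathway (5 of 12 lower, 2 higher), where 12.1% of all genes were past 2-fold lower and 7.51% higher. All 5 of the lower Notch genes were under 20 CPM in the ventilated library and passed the filter only through the nonventilated one. In aged mice, the medians were -0.16, -0.65, -0.41 and -0.23. There, 3 of 11 shear and KLF genes were past 2-fold lower and 2 past 2-fold higher, and 2 of 9, 0 of 16 and 1 of 12 genes of the other 3 lists were past 2-fold lower and 1, 0 and 0 higher, where 7.17% of all genes were lower and 4.26% higher. The median of the Notch list in young mice turned to 0.056 with only genes of at least 50 CPM.

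Values of junction genes were mixed. Cldn5, the main endothelial claudin, was at 1570.3, 1754, 1313 and 2023 CPM and Jup, plakoglobin of adherens junctions, at 354, 99.6, 342 and 184 CPM. Jup was lower in ventilated libraries, and Cldn5 was highest in the aged ventilated one. Of 24 genes, 1 was past 2-fold higher and 7 lower in young mice, and of 25 in aged mice none was higher and 3 were lower. Over all genes, 7.51% were higher and 12.1% lower in young and 4.26% higher and 7.17% lower in aged mice, so the aged counts were near that share. Of the lower genes, 3 in young and 2 in aged mice passed the filter only through the nonventilated library. With no filter, 6 of 33 junction genes were higher and 7 lower in young and 3 higher and 3 lower in aged mice. Over all genes with no filter, 1914 of 18642 were higher and 5170 lower in young mice. In aged mice, 2340 of 18606 were higher and 2950 lower. The lower counts of the list were not above those shares. Eln, elastin, was at 92.0, 8.92, 103 and 15.0 CPM, Rnf144a, a ubiquitin ligase gene, at 535, 61.1, 437 and 39.8 CPM and Antxr1, an anthrax toxin receptor that binds collagen, at 187, 20.5, 167 and 25.1 CPM. All 3 were among the 10 genes with the lowest log2 ratios at each age among genes with a mean of 50 CPM or more, as were Nxpe4 at 164, 9.36, 113 and 19.3 CPM and Specc1 at 194, 24.3, 194 and 31.5 CPM. Others of those genes were Tmem44 in young mice at 119, 14.7, 103 and 42.8 CPM, and, in aged mice, the engulfment adaptor Gulp1 at 121, 20.5, 150.0 and 25.4 CPM, the transcriptional repressor Klf12 at 114, 15.4, 129 and 21.1 CPM, the sialyltransferase St6galnac3 at 485, 71.1, 583 and 94.5 CPM and the chromatin reader Mllt3 at 88.0, 35.7, 104 and 14.7 CPM. In fatty acid and lipoprotein handling, Lpl, lipoprotein lipase, was at 146, 324, 170.3 and 621 CPM, higher after ventilation, whereas Mgll, a monoacylglycerol lipase, was at 94.4, 17.8, 79.1 and 34.6 CPM. Cd36, the fatty acid translocase, was at 2143, 1017, 1595 and 1147 CPM, and the list had 5 of 11 genes past 2-fold lower in young and 3 in aged mice, against 12.1 and 7.17% of all genes, and 1 past 2-fold higher at each age. With no filter, 7 of 24 were lower and 7 higher in young and 5 lower and 4 higher in aged mice. The lower counts were near the shares of all genes with no filter given above for junction genes.

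Genes of growth, stress and guidance showed further differences after ventilation. Myc, a driver of growth and ribosome production, was at 1.05, 41.2, 1.00 and 59.3 CPM, from 4, 185, 4 and 194 UMIs, and the AP-1 gene Fosl1 at 1.05, 65.1, 3.76 and 42.5 CPM, from 4, 292, 15 and 139 UMIs, while Jun was at 1250.0, 1008, 1457 and 953 CPM. The first 2 were close to 0 in both nonventilated libraries, and Jun was lower in both ventilated ones. Hspb1, a small heat shock protein gene that binds actin, was at 74.3, 209.5, 98.2 and 250.5 CPM, Txnrd1, a thioredoxin reductase gene, at 52.7, 163, 75.9 and 121 CPM and Cdkn1a, the cell-cycle inhibitor p21, at 216, 542, 354 and 529 CPM. The glucose transporter gene Slc2a1 was at 8.17, 43.2, 12.8 and 26.3 CPM and the hypoxia-inducible gene Ankrd37 at 9.75, 53.9, 18.3 and 55.4 CPM. All 5 were higher in both ventilated libraries. Bdkrb2, the bradykinin B2 receptor gene, was at 15.3, 137, 18.8 and 122 CPM, higher in both ventilated libraries. Cxcl16, a chemokine that is also a scavenger receptor, was at 8.96, 111, 15.3 and 68.2 CPM, while Cxcl12, which retains leukocytes and progenitors, was at 446, 127, 518 and 224 CPM. These chemokine genes thus went opposite ways at both ages. The aggrecanase gene Adamts4 was at 1.05, 39.9, 1.50 and 13.2 CPM and the membrane metalloproteinase gene Mmp15 at 56.7, 2.67, 51.3 and 8.26 CPM. Among guidance genes, the ephrin receptor gene Ephb4 was at 208, 45.2, 174 and 78.3 CPM, the neuropilin gene Nrp1 at 533, 137, 460.3 and 257 CPM, Sema5a at 28.2, 104, 29.3 and 80.1 CPM and Sema6d, the most abundant of the list, at 448, 815, 418 and 923 CPM. Both semaphorin genes were higher after ventilation at both ages, and Ephb4 and Nrp1 were lower.

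**Figure D4:**
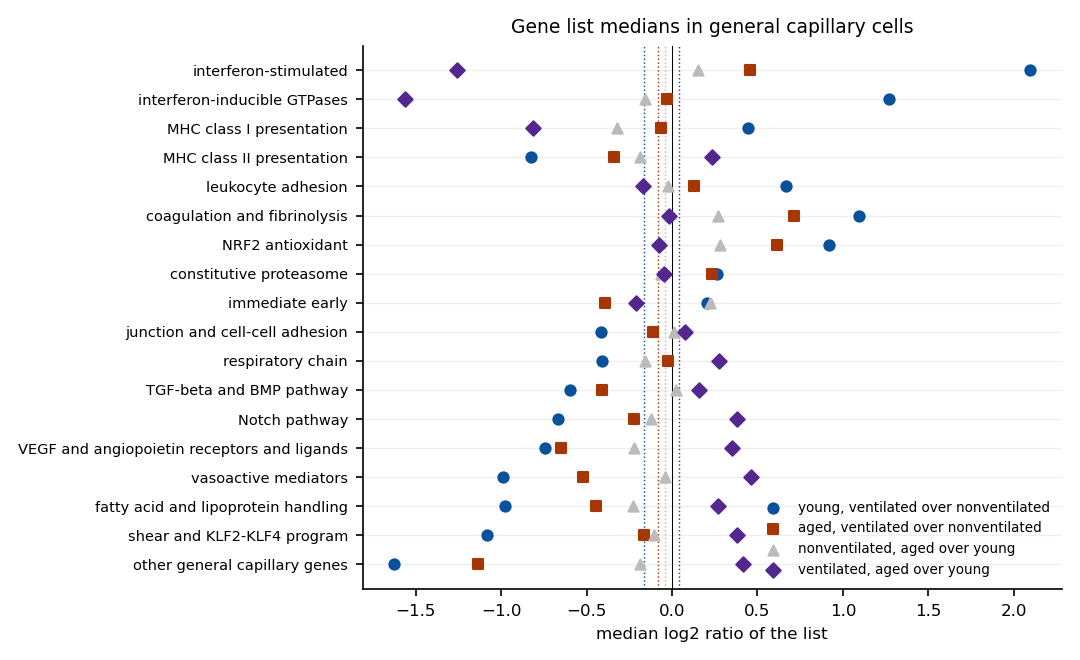
Median log2 ratio of gene lists in general capillary cells, in the 4 comparisons, with dotted lines at the median of all genes compared. Interferon-stimulated genes stand at 2.10 in young and 0.46 in aged ventilation and at -1.26 between the ventilated libraries.

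Between the nonventilated libraries, general capillary cells of aged and young mice differed in few genes. Of 6433, 38 (0.591%) were at least 2-fold higher in aged cells and 10 (0.155%) at least 2-fold lower. With members thinned to 2000 UMIs, the counts were 79 and 61. Vwf, von Willebrand factor, which larger vessels express most and capillaries little, was at 105, 86.3, 248 and 299 CPM, a log2 ratio of 1.24 (2.10 to 2.66) without and 1.79 (3.07 to 3.90) with ventilation. It was higher in both aged libraries and was detected in 15.2, 12.1, 31.8 and 35.1% of thinned members, against at most 0.538% of thinned cells with Col1a2. Icam1, which binds leukocyte integrins, was at 241, 369.6, 495 and 491 CPM, a log2 ratio of 1.04 (1.90 to 2.23) of aged over young nonventilated cells. It was detected in 28.9, 40.6, 40.8 and 47.3% of thinned members and in 25.3, 49.5, 41.3 and 40.6% of thinned cells with Col1a2. The share was thus higher in the aged nonventilated library in both classes. Hdac9, a histone deacetylase, was at 172, 58.2, 370.2 and 132 CPM and Ccn1, a matricellular gene induced by YAP, at 46.9, 267, 98.9 and 209 CPM. Both were higher in aged nonventilated cells than in young ones. The transcription factor gene Sox5 was at 56.4, 74.7, 116 and 109 CPM and Pls3, an actin bundler, at 80.4, 358, 174 and 332 CPM, and on the lower side stood Edil3, an integrin ligand, at 98.6, 19.8, 45.6 and 15.3 CPM. Of 12 NF-kB feedback genes, 11 were higher in aged nonventilated cells and none by 2-fold (median 0.53), and 78 of 80 cytosolic ribosomal protein genes were lower with a median of -0.25, where the median over all genes was -0.04, with 43.1% of genes higher and 56.9% lower.

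Between the ventilated libraries, the 10 genes of lowest log2 ratio among those with a mean of 50 CPM or more were all ones that interferon is known to induce. Of 5898 genes, 62 (1.05%) were at least 2-fold higher in aged and 127 (2.15%) at least 2-fold lower. With members thinned to 2000 UMIs, the counts were 152 and 151. All 32 interferon-stimulated genes were lower in aged ventilated cells, 25 by at least 2-fold (median -1.26), as were 13 of 13 GTPases, 9 by 2-fold (-1.56), and 15 of 15 MHC class I genes, 1 by 2-fold (-0.81), where 44.4% of all genes were lower. The lowest were Cxcl10 at -4.36 (0.0374 to 0.0607) and Rsad2 at -4.11 (0.0489 to 0.0671). Ifi211, a further gene of the Ifi200 family, was at 2.90, 93.4, 7.01 and 8.26 CPM, Cmpk2, a mitochondrial nucleotide kinase next to Rsad2, at 25.3, 261, 28.8 and 47.1 CPM, and the exonuclease gene Isg20 at 9.22, 103, 10.0 and 18.7 CPM. Among higher genes, Npr3 was at 2.29 and Tmem100 at 1.35, both being less far below their nonventilated level in aged cells. Lrg1, which modifies TGF-beta signaling in endothelium, was at 36.6, 132, 48.1 and 360.0 CPM, Smad6, an inhibitor of BMP signaling, at 446, 161, 602 and 451 CPM, and Jam2, a junction adhesion molecule, at 63.8, 30.3, 72.6 and 82.0 CPM. Lrg1 was highest in the aged ventilated library, whereas Smad6 and Jam2 were lowest in the young ventilated one. Each library enters 2 of the 4 comparisons, so the values between ages and those of ventilation are not independent of each other.

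Aerocytes, found by the same limits, Cdh5, at least 3 of Ednrb, Car4, Apln, Tbx2 and Fibin and no Prox1, Ptprc or Col1a2, numbered 216, 174, 125 and 111 with 2524850, 2165453, 1585114 and 1553205 UMIs, and 6, 10, 4 and 6 cells met both rules and are counted in each class. Over 6269 genes, 71 (1.13%) were at least 2-fold higher in general capillary cells in all 4 libraries and 143 (2.28%) at least 2-fold lower. The first count was 141 with thinned members and 226 by the mean over cells. Sntb1, which encodes a syntrophin, was at 312, 66.4, 315 and 160.0 CPM in general capillary cells and 54.7, 18.9, 69.4 and 36.7 CPM in aerocytes, and its log2 ratios were 1.78 to 2.50. The cathepsin C gene Ctsc was at 65.1, 78.0, 80.9 and 70.7 CPM against 17.0, 27.7, 26.5 and 15.5 CPM, and Entpd1, which encodes the ATP-degrading enzyme CD39, at 349, 181, 317 and 310.1 against 105, 56.3, 102 and 118 CPM. Both were higher in general capillary cells in every library. The others of the 10 genes that rank highest by their smallest log2 ratio were Cadps2, Cdk6, St6galnac3, Cmah, Plcb1, Cadm1 and Prss12. At the other end, Sirpa, which encodes a receptor for CD47, was at 1.05, 4.01, 1.25 and 4.59 CPM against 107, 93.7, 111 and 126 CPM. Genes of MHC class II presentation were higher in general capillary cells, with medians of 1.31, 0.95, 1.13 and 1.34 over 7 genes. These classes were made from the counts, so the ratios are a description.

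The ratio of interferon-stimulated genes with ventilation was smaller in general capillary cells than in aerocytes of the same libraries, from a higher level without ventilation. Their median log2 ratio of general capillary cells over aerocytes was 0.57, -0.22, 0.39 and -0.03 over 32 genes. For 31 interferon-stimulated genes, the median log2 ratio in young mice was 2.08 in general capillary cells and 2.82 in aerocytes, and for 14 GTPases it was 1.27 and 2.03. In aged mice, the medians were 0.44 and 0.74 over 26 genes and -0.03 and 0.48 over 13 GTPases. Cxcl10 in aerocytes was at 8.32, 1858, 26.5 and 71.5 CPM. On the other side, coagulation and fibrinolysis genes had medians of 1.10 in general capillary cells and 0.63 in aerocytes in young mice, and the other general capillary genes -1.62 and -1.30. With 1 library per group, no test of these differences was made.

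**Figure D5:**
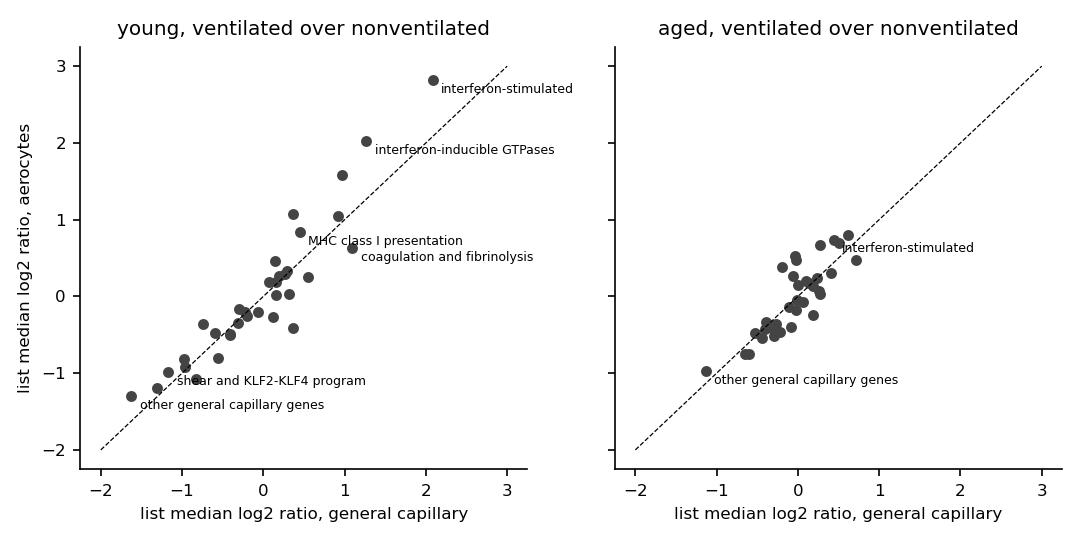
Median ventilation log2 ratio of each gene list in aerocytes (vertical) against general capillary cells (horizontal), in young and aged mice, with a dashed line where both are equal. The interferon-stimulated list lies above the line, at 2.08 and 2.82 in young mice and at 0.44 and 0.74 in aged mice.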

How the data were processed

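The authors aligned reads of 10x 3′ libraries to mm10 with Cell Ranger 7.0.0 and deposited raw, whole-number UMI counts for each gene in each barcode. Versions are from the submitters' processing notes. Members were found by the rule above in Python 3.11.15 (numpy 2.4.6, scipy 1.17.1, pandas 2.3.3, matplotlib 3.10.9), and their counts were summed per library and scaled to CPM. Log2 ratios carry 1 added UMI, and genes whose mean over both libraries reached 20 CPM were compared, without genes of the rule and mitochondrial genes. Called means past 2-fold. Ratios have conditional binomial, shares Clopper-Pearson and sums Poisson intervals. No doublet caller was run; doublets were limited by the gene limit and the genes required to be absent. The steps were tested on simulated data.

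Members and gene lists were chosen with earlier results of these data known. Named genes were, per comparison, the 10 highest and 10 lowest log2 ratios among genes whose mean reached 50 CPM; per list, the 3 largest ventilation ratios and the most abundant member; and, beside aerocytes, the 10 with the largest smallest ratio in each direction. Some of these are not reported here. Irf7, Isg15, Cd274 and Jup are outside this rule and were chosen after their values were seen. Alternatives varied cell limits, marker number, depth, scaling, weighting, background, gene filter and added UMIs. Leaving out members with at least 10 UMIs of Hbb-bs, Sftpa1 or Sftpc was added after the data were seen.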

Additional observations from a re-analysis of the deposited data

Results flagged for a closer look

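In 8 genes named for a comparison or a list, the ventilated library was higher at one age and lower at the other, with both counting intervals apart from a ratio of 1. There was 1 library per group, so the difference between the ages was not tested. Among interferon-inducible GTPases, log2 ratios in young and aged mice were 1.79 and -0.46 for Gbp5, 1.56 and -0.63 for Gbp6, and 0.58 and -0.89 for Iigp1. Vwf was at -0.29 and 0.27, both under 2-fold. Btg2, an antiproliferative gene that p53 induces, was at 0.11 and -0.70, and Prkg1, the cGMP-dependent protein kinase gene, at -0.35 and 0.23. The phosphatase gene Ptpn9 was at -0.47 and 0.49, and Simc1 at 0.38 and -0.40.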

How the results depend on the processing

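No paired analysis was possible because each group is 1 pooled library, and for the same reason no library could be left out. Depth limits genes under 20 CPM, where a few UMIs decide a ratio. Of 2548 alternative values for named genes past 2-fold, 2540 kept their direction, 8 turned and 114 came under 2-fold. Over 16 alternatives, the interferon-stimulated median ranged from 1.83 to 2.18 in young ventilation, from 0.34 to 0.51 in aged ventilation and from -1.31 to -1.19 between ventilated libraries. Causes of the moves below were not tested, except that fewer or more genes enter under another gene filter.

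Shares of members, in library order, were 17.2 and 15.5% in the young and aged nonventilated libraries with 5000 genes as the upper limit, and 17.9, 14.9, 16.3 and 14.3% with the 93rd percentile of UMIs added. They were 13.2, 11.2, 10.8 and 8.53% at a mitochondrial limit of 5%, 16.9, 16.5, 14.9 and 14.0% with 2 markers, 12.8, 8.96, 10.2 and 7.95% with 4 markers, 8.94, 6.40, 6.18 and 5.53% without members holding UMIs of 10 genes of other cell types, and 13.7, 7.22, 10.9 and 8.44% at 2000 UMIs per cell. Over cells with Cdh5 they were 46.5, 46.4, 51.0 and 47.8%, and over all barcodes 12.5, 9.90, 10.6 and 8.97%.

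Counts past 2-fold moved mainly with the gene filter. Higher and lower counts with no filter were 1914 and 5170 in young ventilation, 2340 and 2950 in aged ventilation, 1516 and 2217 between nonventilated and 2971 and 1259 between ventilated libraries. At 5 CPM they were 703 and 1807, 430 and 1085, 178 and 74, and 260 and 241. At 50 CPM, 356 were lower in young ventilation, 165 higher and 224 lower in aged ventilation, 11 higher and 2 lower between nonventilated and 28 higher between ventilated libraries. Thinned members gave 79 higher and 61 lower between nonventilated and 152 higher and 151 lower between ventilated libraries. Between nonventilated libraries, 16 were lower at a mitochondrial limit of 5%, and without members holding UMIs of other cell types 20 were lower, and 113 were higher between ventilated libraries. Beside aerocytes, 141 genes were higher in thinned members and 226 by the mean over cells.

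The medians of 2 lists turned sign in young ventilation, the Notch pathway to 0.056 at 50 CPM and fatty acid handling to 0.026 with no gene filter. Hbb-bs in aged ventilation turned to -2.13 at a mitochondrial limit of 5% and to -1.11 without the members rich in Hbb-bs, Sftpa1 or Sftpc. Sftpa1 in aged ventilation turned to 0.79 with 5000 genes, 0.84 with the 93rd percentile, 1.28 at 5% mitochondrial UMIs, 0.44 without members holding genes of other cell types and 0.69 without the rich members, and Sftpa1 between nonventilated libraries to -0.35 at 5%.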

Other observations

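Other gene groups in general capillary cells were as follows. Respiratory chain genes had medians of -0.41 in young and -0.026 in aged ventilation, with 28 of 30 lower in young mice, where 61.4% of all genes were lower. Immediate early genes, which tissue digestion can induce, had medians of 0.21 and -0.39, heat shock genes 0.15 and 0.27, and circadian clock genes -0.25 and -0.21. Among axon guidance genes, 3 of 19 were past 2-fold higher and 6 past 2-fold lower in young mice, and among basement membrane and matrix genes 7 of 18 were higher and 4 lower, against 7.51% of all genes higher and 12.1% lower. In aged mice, 4 of the 18 guidance genes also compared in aerocytes were past 2-fold higher and 1 lower. Of 15 basement membrane and matrix genes in aged mice, 5 were higher and 4 lower. Over all genes, 4.26% were higher and 7.17% lower there. Of the cell division genes, 2 passed the filter in young ventilation, and neither was past 2-fold.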
